A study of Gallus gallus with 8 samples.

Results

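The regions described here are stretches of chicken chromatin on the chromosomes numbered 11 and above that carried CUT&RUN peaks of the transcription factors Otx2 or Oc1 at both digestion times. Peaks of the 4 lists that overlapped by 1 base or more were joined into 22266 regions. A region was called reproducible where both times of Otx2, or both times of Oc1, had a peak in it, which held for 9718 regions (43.6% of all joined regions). Of these, 2944 lay on chromosomes 11 and above, spread over 20 chromosomes, and 6310 lay on chromosomes 1 to 10. The regions were thus chosen by where peaks lay in these lists, so their presence at both times is a description and no finding. The limit at chromosome 11 is one of chromosome number and used no peak value, but it was set with earlier results of these data known.

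CUT&RUN uses an antibody to bring a nuclease to its target in chromatin, and the DNA cut free around the target is sequenced. All libraries came from wild-type chick embryos, from retinas taken at E5 and dissociated into single developing retinal cells. Antibodies against Otx2 and against Oc1 were used with digestion for 25 and for 30 min, which gives 4 peak lists with 1 library for each antibody and time. The series has 8 samples, and its H3K27me3 and IgG libraries at both times were not analysed here. No condition has a replicate, so no p-value is given. All intervals are 95% intervals that cover counting error over regions or peaks. They do not cover the spread between preparations or between chromosomes. They treat regions as independent, although regions were unevenly spread along chromosomes, and may be too narrow. In such bulk material, binding in fewer cells and weaker binding per cell cannot be told apart.

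Otx2 is a homeodomain factor needed for photoreceptors and bipolar cells, and Oc1 (Onecut1) is a cut homeodomain factor of early retinal progenitors and horizontal cells. Progenitors that hold both factors give rise to cones and horizontal cells. Bird genomes combine a few large chromosomes with many small ones. In chicken, chromosomes 1 to 5 are usually called macrochromosomes, 6 to 10 intermediate and those from 11 upward microchromosomes. Microchromosomes are known for their high density of genes, high GC content and frequent recombination.

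The lists held 11495 (Otx2, 25 min), 9044 (Otx2, 30 min), 9777 (Oc1, 25 min) and 10664 peaks (Oc1, 30 min). Depth is not listed, but the reads behind each peak could be recovered from its fold and p. The median peak rested on 6 to 8 reads at its summit, so single folds move in coarse steps. Chromosomes numbered 11 and above held 12003 of the peaks and chromosomes 1 to 10 held 26923.

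Reproducible regions were denser on the small chromosomes. Chromosomes 11 and above had 16.7 regions per Mb (exact Poisson interval 16.1 to 17.3) and chromosomes 1 to 10 had 8.37 per Mb (8.16 to 8.57). The ratio of both densities was 1.996 (exact interval 1.91 to 2.09). With 18.9% of the length of the numbered chromosomes, chromosomes 11 and above held 31.8% of their reproducible regions. Length was taken to the end of the last peak of any list in the build galGal5, which gave 176 Mb and 754 Mb. The same direction appeared in each list on its own, without the demand for a repeat. Otx2 at 25 min had 20.1 peaks per Mb on chromosomes 11 and above and 9.78 on chromosomes 1 to 10, a ratio of 2.05 (1.97 to 2.14). Otx2 at 30 min had 16.6 and 7.58 peaks per Mb, a ratio of 2.19 (2.09 to 2.29). The Oc1 lists showed smaller ratios. Oc1 at 25 min had 14.97 peaks per Mb on chromosomes 11 and above and 8.77 on chromosomes 1 to 10 (ratio 1.71, 1.63 to 1.79). Oc1 at 30 min had 16.4 and 9.56 (ratio 1.72, 1.65 to 1.79). The intervals of both Otx2 lists lay above those of both Oc1 lists.

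Densities differed widely among the small chromosomes themselves. Of the 20, 16 had 50 or more regions, which left 67 regions on chromosomes 16, 25, 32 and 33. Chromosome 26 was the densest of the 16, with 33.3 regions per Mb (28.6 to 38.7). Chromosome 24 followed with 30.4 (26.2 to 35.1), chromosome 23 with 26.4 (22.4 to 30.9) and chromosome 21 with 25.7 (22.0 to 29.8). Neighbours in this order had overlapping intervals, so the ranks of these 4 chromosomes are not resolved. A middle group followed, with 20.3 regions per Mb on chromosome 15 (17.9 to 22.9), 18.9 on chromosome 19 (16.3 to 21.7), 18.1 on chromosome 28 (14.6 to 22.2), and 17.6 on chromosomes 17 (15.2 to 20.3) and 22 (13.9 to 21.9). The remaining chromosomes of the 16 lay at or below the level of chromosome 10. They were chromosome 11 with 15.4 (13.8 to 17.3), chromosome 20 with 14.8 (12.9 to 17.0), chromosome 27 with 13.5 (10.6 to 16.9), chromosomes 18 (11.3 to 15.8) and 14 (11.6 to 15.4) with 13.4 each, chromosome 12 with 11.9 (10.5 to 13.6) and chromosome 13 with 10.9 (9.43 to 12.5). Chromosome 13, the lowest, was the only one of the 16 below the highest of chromosomes 1 to 9.

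**Figure D1:**
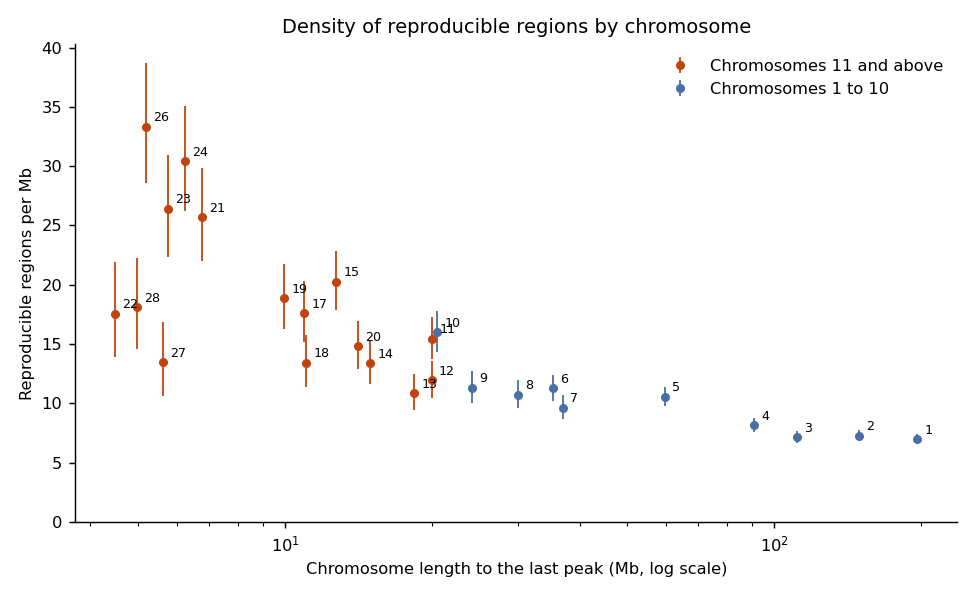
Reproducible regions per Mb (vertical axis) against chromosome length to the last peak in Mb (horizontal log axis) for the chromosomes with 50 or more regions, with 95% Poisson intervals. Chromosomes 21, 23, 24 and 26 stand at 25.7 to 33.3 per Mb, above chromosomes 22, 27 and 28 of like length, and chromosomes 1 to 3 stand near 7 per Mb.

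The boundary between the groups was not a step. Chromosome 11, just inside it, had 15.4 regions per Mb, and chromosome 10, just outside, had 16.002 (14.3 to 17.8). Chromosomes 6 to 10 together had 11.4 per Mb (10.9 to 11.98) and chromosomes 1 to 5 had 7.63 (7.41 to 7.85). Of the 16 chromosomes, all had a density above the pooled value of chromosomes 1 to 10, and 9 lay above each single one of them. Over the 26 chromosomes with 50 or more regions, density and length had a Spearman's rho of -0.87. It was -0.59 within the 16 small chromosomes and -0.96 within chromosomes 1 to 10. These values describe chromosomes that share the same 4 libraries, and chromosome numbers follow the lengths used here only roughly. Chromosomes 22, 27 and 28 were as short as the densest ones, at 4.50, 5.63 and 4.97 Mb, and had lower densities. Chromosome 26 spans 5.19 Mb.

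Region counts also varied between windows of 1 Mb. Windows were pooled over the chromosomes of a group, so their range includes differences in density between chromosomes. In full windows of 1 Mb, chromosomes 11 and above had a median of 15 regions, with 5 at the 10th and 30 at the 90th percentile and 51 in the fullest of 165 windows. Chromosomes 1 to 10 had a median of 7, with 2 and 16 at these percentiles and 36 in the fullest of 750 windows. Windows without any region made up 2.42% and 2.13%. The outermost 10% of length at each end, 20% of the length together, held 16.5% of the regions of chromosomes 11 and above (Wilson interval 15.2 to 17.9%) and 22.5% of those of chromosomes 1 to 10 (21.5 to 23.6%). The share was thus below that of length on the small chromosomes and above it on chromosomes 1 to 10. Ends were set by the first base of the build and the last peak.

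Local background was recovered for each peak and given relative to the lowest of its list. The highest single value was 550 times, on chromosome 11, against 174 times on chromosomes 1 to 10. Chromosomes 25, 28 and 26 reached 434, 415 and 407 times. Peaks over a background raised more than 2 times, 21.8% of all peaks of the series, made up a smaller share of the peaks on the small chromosomes. For Otx2 they made up 21.7% (20.3 to 23.0%) on chromosomes 11 and above and 24.5% (23.6 to 25.5%) on chromosomes 1 to 10 at 25 min, and 10.3% (9.26 to 11.5%) and 13.4% (12.5 to 14.3%) at 30 min. For Oc1 they made up 32.3% (30.5 to 34.1%) and 35.2% (34.1 to 36.4%) at 25 min, and 15.2% (13.9 to 16.5%) and 16.9% (16.04 to 17.8%) at 30 min. Without such peaks the density ratio was larger, at 2.20 (2.08 to 2.34). In all 4 lists the pooled group of higher density had the lower share of raised background. Of the 16 small chromosomes with 50 or more regions, 12 and 13 lay below the pooled share of chromosomes 1 to 10 for Otx2 at 25 and 30 min. For Oc1 it was 13 and 14. Over the 26 chromosomes with 50 or more regions, density and this share had Spearman's rho of -0.39 and -0.63 for Otx2, and of -0.24 and -0.42 for Oc1. Within the 16 with 50 or more regions, density and this share had Spearman's rho of -0.05 and -0.39 for Otx2 at 25 and 30 min. For Oc1 it was 0.29 and 0.04. Within chromosomes 1 to 10 the values were -0.76, -0.70, -0.75 and -0.48 in the same order. A part of background in the density was not tested. Gene content, base composition and mappability of the chromosomes were not measured, and their part in the density was not tested.

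The pooled antibody mix shifted towards Otx2 on the small chromosomes, without a step at chromosome 11. Here "alone" means that no peak of the other antibody was called, which is not absence of that factor. Regions of Otx2 alone, with its peaks in both lists and none of Oc1, made up 31.8% of the 2944 regions on chromosomes 11 and above (936 regions, Wilson interval 30.1 to 33.5%) and 24.5% on chromosomes 1 to 10 (23.4 to 25.6%). The difference was 7.31 percentage points (interval 5.33 to 9.31). Regions of Oc1 alone, defined in the same way, made up 21.1% on chromosomes 11 and above (620 regions, 19.6 to 22.6%) and 26.3% on chromosomes 1 to 10 (25.3 to 27.4%), a difference of -5.26 points (-7.07 to -3.41). Chromosomes 6 to 10 lay between chromosomes 1 to 5 and the small ones, with 26.5% of Otx2 alone and 24.2% of Oc1 alone. Oc1 alone made up 19.4% on chromosome 9 and 20.2% on chromosome 10, below the pooled small chromosomes. Within chromosomes 1 to 10, Spearman's rho with length was -0.64 for the share of Otx2 alone and 0.71 for Oc1 alone. Within the 16 small chromosomes with 50 or more regions it was -0.58 and 0.06. Regions found at both times of both antibodies took a similar part of each group, with 23.2% on chromosomes 11 and above (684 regions) and 23.5% on chromosomes 1 to 10, a difference of -0.30 points (-2.13 to 1.57). It was 2.37 points (0.492 to 4.3) where a repeat had to cover 50% of the other peak. Of the remaining regions of the small chromosomes, 334 had both times of Otx2 and 1 time of Oc1, and 370 had both times of Oc1 and 1 time of Otx2. The first kind made up 11.3% on chromosomes 11 and above and 11.4% on chromosomes 1 to 10, and the second 12.6% and 14.2%.

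Every class was denser on the small chromosomes, to different degrees. Regions of Otx2 alone had 5.31 per Mb on chromosomes 11 and above and 2.05 on chromosomes 1 to 10, a ratio of 2.59 (2.39 to 2.81). Regions of both antibodies had 3.88 and 1.97 per Mb, a ratio of 1.97 (1.80 to 2.16). Regions of Oc1 alone had 3.52 and 2.20 per Mb, a ratio of 1.60 (1.45 to 1.75). The 3 intervals did not overlap. Regions of Oc1 alone were thus also more frequent per Mb on the small chromosomes, although their share was lower there. Both times of Otx2 had peaks in 1954 regions on chromosomes 11 and above and in 3751 on chromosomes 1 to 10, beside 42.5% of all joined regions with an Otx2 peak in the series. Both times of Oc1 had peaks in 1674 and 4044 regions, beside 42.6% of all joined regions with an Oc1 peak. Otx2 had more such regions than Oc1 on 13 of the 16 small chromosomes with 50 or more regions, and Oc1 had more on 6 of chromosomes 1 to 10. As a share of the joined regions with a peak of the antibody, those with both times were 44.8% for Otx2 on chromosomes 11 and above and 41.5% on chromosomes 1 to 10, and 44.1% and 42.0% for Oc1. The rule used these repeats, and nothing is read from them.

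**Figure D2:**
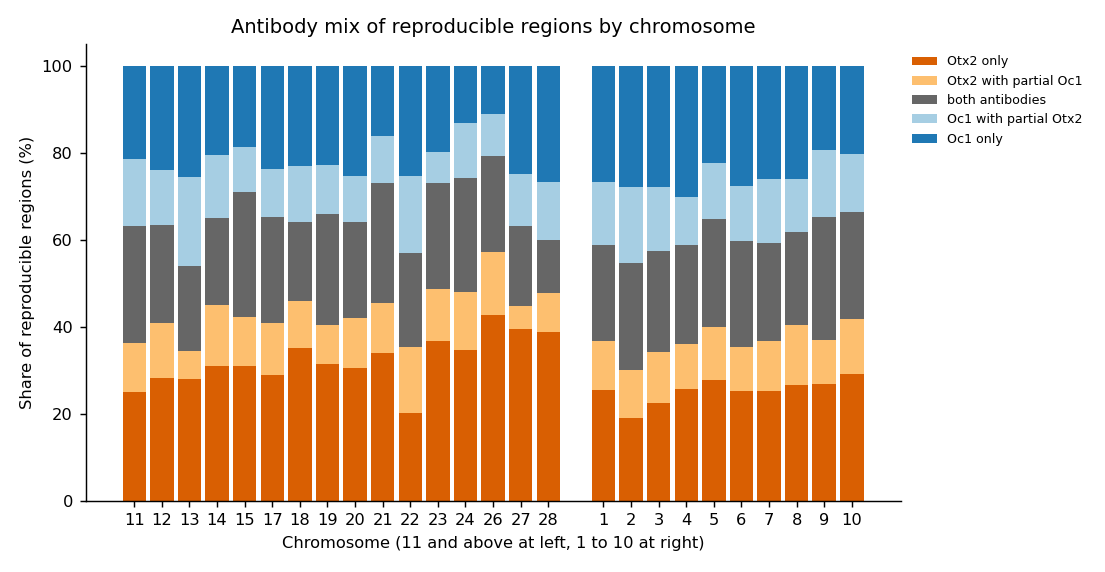
Share of reproducible regions in each antibody class (vertical axis, %) for the chromosomes with 50 or more regions, with chromosomes 11 and above left of chromosomes 1 to 10. "Only" means no peak of the other antibody, "partial" a peak at 1 time. Chromosome 26 has the highest share of Otx2 alone, 42.8%, and the lowest of Oc1 alone, 10.98%.

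By chromosome, the share of regions with Otx2 alone was 42.8% on chromosome 26 (35.6 to 50.2%), the highest of the 16. It was 39.5% on chromosome 27 (29.2 to 50.7%), 38.9% on chromosome 28 (29.5 to 49.2%), 36.8% on chromosome 23 (29.6 to 44.7%), 35.1% on chromosome 18 (27.9 to 43.1%), 34.7% on chromosome 24 (28.3 to 41.7%) and 33.9% on chromosome 21 (27.3 to 41.2%). Further down came chromosome 19 with 31.4%, chromosomes 14 and 15 with 31.0% each and chromosome 20 with 30.6%. These 11 chromosomes lay above chromosome 10, the highest of chromosomes 1 to 10 at 29.1% (24.4 to 34.2%), though only the interval of chromosome 26 cleared that of chromosome 10. The share was 29.0% on chromosome 17, 28.2% on chromosome 12, 28.0% on chromosome 13 and 24.9% on chromosome 11. Chromosome 22 had the lowest share, 20.3% (12.9 to 30.4%), and was the only one of the 16 below the pooled 24.5% of chromosomes 1 to 10. Its interval was among the widest, with 79 regions.

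The share with Oc1 alone was lowest on chromosome 26 (10.98%, 7.14 to 16.5%), followed by chromosome 24 (13.2%, 9.07 to 18.7%) and chromosome 21 (16.1%, 11.4 to 22.3%). These are 3 of the 4 densest chromosomes. It was 18.6% on chromosome 15, 19.7% on chromosome 23, 20.5% on chromosome 14, 21.4% on chromosome 11, 22.9% on chromosome 19, 23.0% on chromosome 18, 23.8% on chromosome 17 and 23.9% on chromosome 12. Chromosomes 27 (25.0%), 22 (25.3%), 20 (25.4%), 13 (25.5%) and 28 (26.7%, 18.6 to 36.6%) were near the pooled 26.3% of chromosomes 1 to 10. Chromosome 28 thus had a high share of Otx2 alone without a low share of Oc1 alone. What it had less of was regions of both antibodies, at 12.2% (6.96 to 20.6%), the lowest of the 16. The highest share of both antibodies was found on chromosome 15 (28.7%, 23.5 to 34.5%), with chromosomes 21 (27.6%) and 11 (26.9%) next.

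The tilt between the antibodies was seen at both digestion times in the number of all peaks, repeated or not. On chromosomes 11 and above there were 1.34 Otx2 peaks for each Oc1 peak at 25 min and 1.01 at 30 min, against 1.12 and 0.79 on chromosomes 1 to 10. The levels differed between the times, as did the lengths of the lists, but the order of the chromosomes was similar. Chromosome 26 had the highest value at both times, 2.07 and 1.40, from 217 and 182 Otx2 peaks and 105 and 130 Oc1 peaks. Chromosome 24 had 1.63 and 1.19, chromosome 21 had 1.59 and 1.21, and chromosome 23 had 1.56 and 1.17. Chromosome 22 was lowest of the 16 at both times, with 1.04 and 0.71, and was close to chromosome 2, which had 0.97 and 0.68. Of the 16, 14 lay above the pooled value of chromosomes 1 to 10 at 25 min and 15 at 30 min. The rank correlation between the times was 0.87 over the 16 chromosomes and 0.91 over all 26, as a description.

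**Figure D3:**
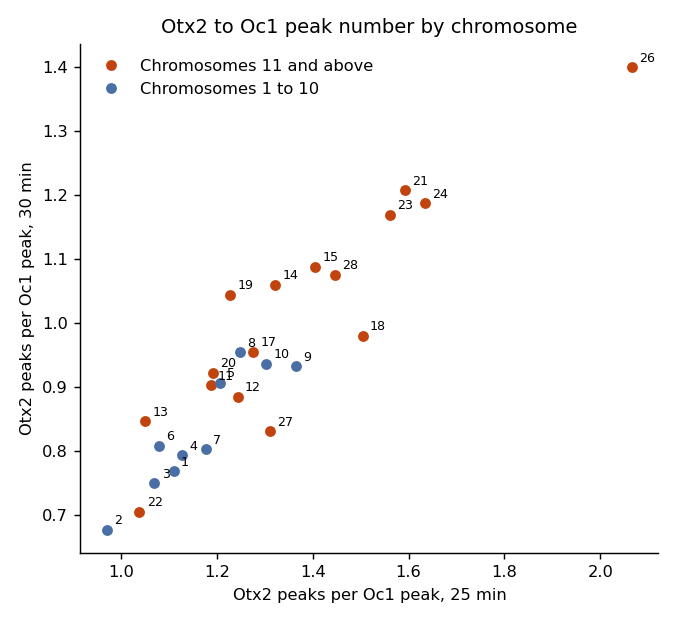
Number of Otx2 peaks per Oc1 peak at 30 min (vertical axis) against the same at 25 min (horizontal axis), 1 point per chromosome with 50 or more reproducible regions. Chromosome 26 lies at the upper right (2.07 and 1.40), chromosomes 21, 23 and 24 next to it, and chromosomes 2 and 22 at the lower left.

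Median peak strength differed between the groups by less than what 1 read is worth. Fold is the authors' fold enrichment at the summit, used within a list only, and of several peaks of a list in a region the strongest was taken. The median fold of Otx2 at 25 min was 6.76 on chromosomes 11 and above and 6.69 on chromosomes 1 to 10. Oc1 had 6.67 and 6.60 at 25 min, and 6.68 in both groups at 30 min. Otx2 at 30 min had 7.01 and 6.39, a difference of 0.61 (interval 0.37 to 0.61). A single read at the lowest background is worth 0.76 in the fold of that list, so the difference is less than the worth of 1 read. The median region of that list had 8 summit reads in both groups. Of all its peaks, 53.3% on chromosomes 11 and above and 44.7% on chromosomes 1 to 10 stood at the lowest background. Without peaks over a background raised more than 2 times, the fold difference of Otx2 at 30 min was 0.61 (0.25 to 0.76). Against chromosomes 1 to 5 it was 0.61 (0.44 to 0.76). Of the 16 small chromosomes with 50 or more regions, 14 had a median above the pooled one of chromosomes 1 to 10 in that list. A part of background in the fold difference was not tested beyond this. The fold difference moved with other choices of regions. It was 0.0618 (0 to 0.196) where repeats had to cover 50% of each other, 0.0169 (0 to 0.536) with a −log10 q of at least 5, 0.387 (0.0812 to 0.746) in the 5000 strongest peaks of each list and 0.746 (0.232 to 0.763) with at least 8 summit reads. With at least 8 summit reads the other lists also had higher medians on chromosomes 11 and above, all with intervals above 0 and all by less than 1 read. At 25 min the Otx2 difference was 0.75 and the Oc1 difference 0.65, and Oc1 differed by 0.29 at 30 min. In every list the median region of either group rested on 8 or 9 summit reads. At the 90th percentile the folds were 11.6, 10.8, 12.4 and 12.5 on chromosomes 11 and above and 10.98, 10.4, 11.7 and 12.2 on chromosomes 1 to 10, in the order Otx2 at 25 and 30 min and Oc1 at 25 and 30 min. The single highest folds were 27.7, 25.3, 37.9 and 38.4 on chromosomes 11 and above and 36.7, 22.5, 305 and 318 on chromosomes 1 to 10. The 2 extreme Oc1 folds, 305 and 318, both lay on chromosome 2. Apart from it, the highest Oc1 folds of chromosomes 1 to 10 were 30.4 and 35.1, both on chromosome 1. These lay below the 37.9 and 38.4 of the small chromosomes.

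Within each antibody class the groups were close too. On chromosomes 11 and above, regions of both antibodies had medians of 7.60 and 7.68 for Otx2 and 7.92 and 8.10 for Oc1 at 25 and 30 min. Regions of Otx2 alone had 6.69 and 6.42, and those of Oc1 alone 5.94 and 6.42. On chromosomes 1 to 10 the medians were 7.60, 7.01, 7.58 and 8.02 for both antibodies, 6.19 and 6.24 for Otx2 alone and 5.89 and 6.07 for Oc1 alone. The classes themselves differ in how many lists had to reach a peak, so their order within a group is not read as a result.

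Widths were close as well. The joined region had a median width of 414 bases on chromosomes 11 and above (407 to 421) and of 420 bases on chromosomes 1 to 10 (415 to 425), a ratio of 0.99 (0.97 to 1.01). Peak widths were compared within a list, since each list has its own read extension. The medians were 310 and 308 bases for Otx2 at 25 min, 332 and 334 for Oc1 at 25 min, and 361 and 355 for Oc1 at 30 min. The Otx2 peaks at 30 min were wider on chromosomes 11 and above, with 214.5 bases against 204 on chromosomes 1 to 10 (ratio 1.05, 1.02 to 1.09). This is the list that also had the higher median fold there. By class, regions of both antibodies had a median of 554 bases on chromosomes 11 and above and of 566 on chromosomes 1 to 10. Those of Oc1 alone had 396 and 391 bases, and those of Otx2 alone 328 and 321. A region of both antibodies joins at least 4 peaks and one of a single antibody as few as 2, so the classes differ in width by construction.

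**Figure D4:**
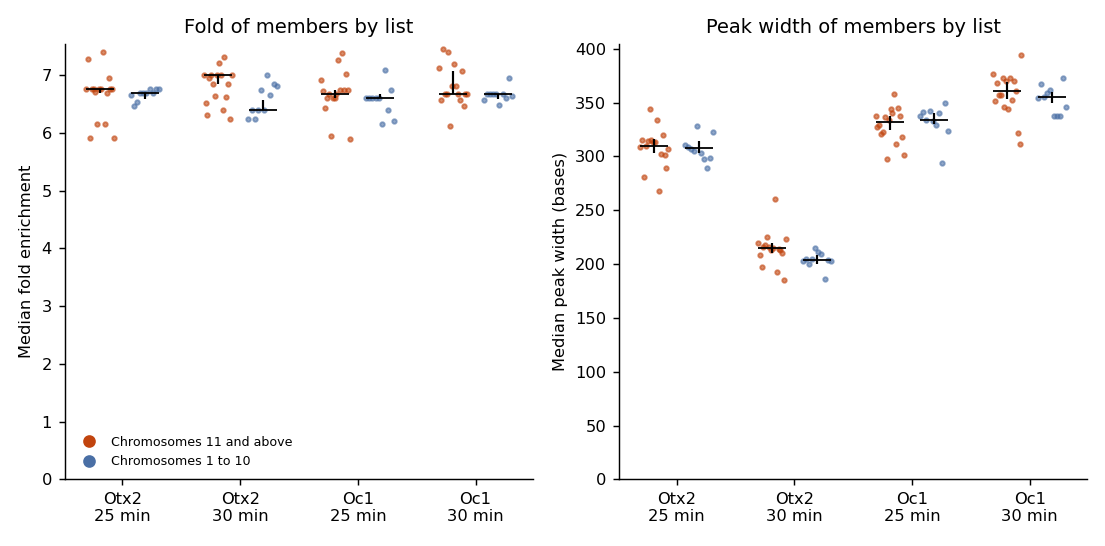
Median fold enrichment (left) and median peak width in bases (right) of reproducible regions in each peak list, with chromosomes 11 and above left of chromosomes 1 to 10 in each pair. Points are single chromosomes with 50 or more regions, bars the pooled median with its 95% interval. The pooled fold medians lie farthest apart in Otx2 at 30 min (7.01 and 6.39).

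The position of summits within regions did not enter the choice of chromosomes, but the rule limits it. Peaks of a region were joined by overlap, so summit distances are bounded by region width, which was close in both groups. The Otx2 summits of both times lay a median of 56 bases apart on chromosomes 11 and above (53 to 60) and 58 bases on chromosomes 1 to 10 (55 to 60). The Oc1 summits lay 51 (47 to 54) and 53 bases apart (51 to 55). In regions of both antibodies the Otx2 and Oc1 summits lay 66 bases apart in both groups at 25 min, and 64 (58 to 69) and 69 bases (66 to 74) at 30 min. The distances did not differ beyond their intervals. The folds of the 2 times had a rank correlation of 0.46 for Otx2 and 0.53 for Oc1 across the regions of chromosomes 11 and above, and of 0.40 and 0.47 on chromosomes 1 to 10, as descriptions over regions that share libraries.

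Regions on the small chromosomes lay closer together. The median distance between the midpoints of neighbours was 23.6 kb on chromosomes 11 and above (21.6 to 25.6) and 46.9 kb on chromosomes 1 to 10 (43.9 to 50.005), a ratio of 0.50 (0.45 to 0.56). The middle 50% of distances ran from 6.12 to 66.9 kb and from 10.8 to 146 kb. Multiplied by density, the median distance was 0.39 in both groups for the main choice of regions. At the short end the groups differed more. Each distance times the density of its own chromosome had a 10th percentile of 0.034 on chromosomes 11 and above and 0.0251 on chromosomes 1 to 10. The order was the other way round at the 75th percentile (1.14 and 1.24) and at the 90th (2.55 and 2.72). Overlapping peaks were joined, so unscaled distances had a like floor in both groups, 0.653 and 0.709 kb at the 1st percentile. Multiplied by a higher density, this floor gives larger scaled distances on the small chromosomes by construction. How much of the difference at the short end it makes up was not tested. Unscaled, 21.9% of the neighbours on chromosomes 11 and above lay within 5 kb (20.5 to 23.5%), against 15.5% on chromosomes 1 to 10 (14.6 to 16.4%). In stricter sets the spacing ratio was lower. It was 0.391 (0.350 to 0.457) at a −log10 q of at least 5, with a density ratio of 2.11. In the 5000 strongest peaks it was 0.377 (0.329 to 0.436), with a density ratio of 2.20. Spacing there shrank by more than density rose. The scaled medians were thus no longer equal, and the shorter was that of chromosomes 11 and above. The longest stretch without a region was 1051 kb, on chromosome 11, and 2306 kb, on chromosome 2.

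**Figure D5:**
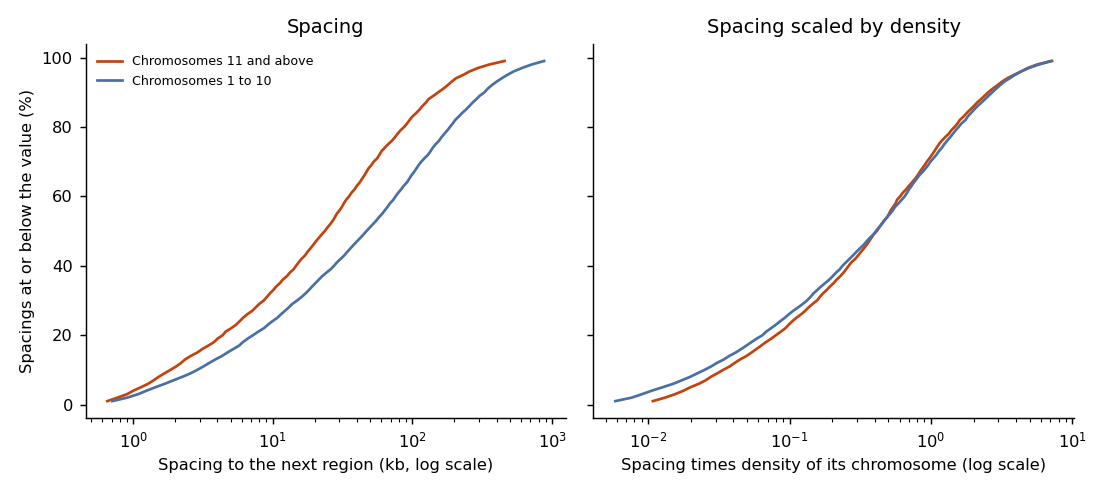
Share of spacings between neighbouring reproducible regions at or below a value (vertical axis, %), against spacing in kb (left, log axis) and spacing times the density of its own chromosome (right, log axis). On the left the curve of chromosomes 11 and above lies at shorter spacings (median 23.6 kb against 46.9 kb). On the right the curves cross near the median, and below it chromosomes 11 and above lie at larger scaled spacings (0.034 against 0.0251 at the 10th percentile). At the 90th percentile they lie at smaller ones (2.55 against 2.72). Joining of overlapping peaks limits the shortest spacings in kb in both groups.

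For each chromosome the strongest region was taken as the one with the highest smallest −log10 q over its lists. This sets −log10 q side by side across lists, so the choice does not rank the antibodies. Coordinates are in galGal5, counted from 1. Ranks of single chromosomes in median fold, width and spacing are those of point values. Intervals of chromosomes next in order overlapped, so these ranks are not resolved. Chromosome 11 (309 regions, median width 428 bases, median spacing 22.9 kb) had median folds of 6.76, 7.01, 6.92 and 7.13, in the list order Otx2 at 25 and 30 min and Oc1 at 25 and 30 min. Its strongest region, chr11:17879067-17879710, had peaks of both antibodies, with folds of 27.04, 23.8, 15.2 and 20.9 in the same list order, and its Otx2 and Oc1 summits lay 3 bases apart at 25 min and 31 bases apart at 30 min. By this measure it was the strongest of the 684 regions of both antibodies. Chromosome 12 (238 regions, 404.5 bases, 38.5 kb) had median folds of 7.29, 6.52, 6.73 and 6.58. Its strongest region, chr12:14513603-14514324, also had both antibodies, with folds of 14.8, 14.6, 13.9 and 16.7. The Otx2 peak at 25 min there stood over a background raised 3.39 times, and the background of the other 3 lists was raised at most 1.17 times.

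Chromosome 13 (200 regions, 419 bases) had the widest median spacing of the 16, 42.0 kb, and median folds of 5.91, 6.32, 6.43 and 7.46. It had the highest Oc1 median at 30 min among the 16 (6.57 to 7.58) and, with chromosome 28, the lowest Otx2 median at 25 min (5.55 to 6.69), by point value. Its strongest region, chr13:13975587-13976063, had Oc1 alone, with folds of 16.8 and 16.7 at 25 and 30 min. It also held the strongest region of Otx2 alone on the small chromosomes, chr13:2026597-2027054, with folds of 16.9 and 14.98. Chromosome 14 (200 regions, 427 bases, 28.4 kb) had median folds of 6.76, 6.94, 6.60 and 6.68 and a strongest region of Otx2 alone, chr14:2393510-2394025, with folds of 16.05 and 14.6. Chromosome 15 (258 regions, 407 bases, 18.1 kb) had median folds of 6.76, 7.01, 6.67 and 6.68. Its strongest region, chr15:415629-416358, had Oc1 alone with folds of 20.2 and 23.0, although Otx2 alone was the larger class on that chromosome.

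Chromosome 17 (193 regions, 433 bases, 28.4 kb) had median folds of 6.70, 6.84, 5.94 and 7.41. Its strongest region, chr17:3845217-3845598, had Oc1 alone with folds of 17.7 and 17.5. A second region there, chr17:8218041-8219186, had all 4 lists, with folds of 22.8 and 14.6 for Otx2 and of 37.9 and 38.4 for Oc1, the highest Oc1 folds on the small chromosomes. Chromosome 18 (148 regions, 401.5 bases, 35.9 kb) had median folds of 6.16, 6.63, 6.60 and 6.11. Its strongest region, chr18:1837881-1838378, had Oc1 alone (17.2 and 21.7, with a background raised 2.75 times at 25 min), and chr18:2986850-2987436 had Otx2 alone (16.05 and 14.6).

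Chromosome 19 (188 regions, 429 bases, 22.1 kb) had median folds of 6.76, 7.01, 6.60 and 6.82. By −log10 q its strongest region was chr19:54845-56238, near the start of the chromosome, with Oc1 alone. Its folds were only 7.44 and 7.62 with 89 and 99 reads at the summits, and local background was 59.1 and 61.5 times the lowest. Chromosome 20 (209 regions, 405 bases, 24.2 kb) had median folds of 6.76, 7.21, 6.67 and 7.19, and a strongest region of Oc1 alone, chr20:11609234-11609787, with folds of 17.5 and 15.04.

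Of the 4 densest chromosomes, 26, 24 and 21 had the shortest spacings of the 16. Chromosome 21 (174 regions, 428 bases, 14.3 kb) had the highest Otx2 median at 25 min of the 16 by point value (7.39, 6.76 to 7.60), with 7.01, 7.26 and 6.82 in the other lists. Of its neighbouring regions, 31.8% lay within 5 kb (25.3 to 39.1%). Its strongest region, chr21:4365539-4365936, had Oc1 alone with folds of 15.998 and 15.04. Chromosome 23 (152 regions, 407.5 bases, 19.7 kb) had median folds of 6.69, 7.32, 7.38 and 6.57. By point value it was the highest of the 16 for Otx2 at 30 min (6.94 to 8.11) and for Oc1 at 25 min (6.43 to 7.92). Its strongest region, chr23:1305888-1306459, had Otx2 alone (16.7 and 12.3). Chromosome 24 (190 regions, 418.5 bases, 13.6 kb) had median folds of 6.96, 6.63, 6.74 and 7.08. Its strongest region, chr24:3060842-3061699, had peaks in all 4 lists, with folds of 15.8, 14.6, 15.75 and 15.9. Chromosome 26 (173 regions, 389 bases, 12.7 kb) had median folds of 6.76, 6.84, 7.03 and 6.47. On this chromosome, where Otx2 alone was the most frequent class, the strongest region had Oc1 alone: chr26:1677470-1678223, with folds of 24.6 and 23.4 and 31 and 27 summit reads.

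Chromosomes 22, 27 and 28 had 79, 76 and 90 regions, the fewest of the 16. Chromosome 22 (79 regions, 425 bases, 24.8 kb) had median folds of 6.16, 6.41, 6.74 and 6.68. Its strongest region, chr22:2544127-2544778, had Oc1 alone. Its folds were 11.9 at 25 min, where background was raised 2.75 times, and 9.14 at 30 min, where it was raised 9.92 times. Chromosome 27 (76 regions, 376 bases, 25.8 kb) had the narrowest regions of the 16 and median folds of 6.76, 6.24, 6.74 and 6.68. Its strongest region, chr27:4297794-4298315, had Otx2 alone (14.2 and 17.7), with a background raised 3.39 times at 25 min. Chromosome 28 (90 regions, 414.5 bases, 27.3 kb) had median folds of 5.91, 7.01, 5.89 and 6.68, and a strongest region of Oc1 alone, chr28:3744525-3745152, with folds of 13.9 and 12.6 over backgrounds raised 2.75 times at 25 min and 4.96 times at 30 min. Over the 20 chromosomes, the strongest region had Oc1 alone on 10, Otx2 alone on 5, both antibodies on 4 and both times of Otx2 with 1 Oc1 peak on 1. Of all regions on these chromosomes, 21.1% had Oc1 alone and 31.8% Otx2 alone. The lists differ in their lowest background, 0.108 reads for Otx2 at 30 min and 0.184 to 0.197 in the others. The count therefore does not compare the strength of the antibodies. Taking the smallest of 4 values lowers the rank of regions in all lists relative to those in 2.

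The other 4 chromosomes had under 50 regions each. Chromosome 25 had 32 regions, 11.01 per Mb (7.53 to 15.5), with Otx2 alone in 14 and Oc1 alone in 7, a median width of 356 bases and a spacing of 29.4 kb. Its median folds were 6.72, 7.01, 5.05 and 6.22, and its strongest region, chr25:1752298-1752640, had Otx2 alone (16.05 and 11.6). Chromosome 33 had 26 regions, 15.9 per Mb (10.4 to 23.4), with Otx2 alone in 13 and Oc1 alone in 5. Its regions were 364.5 bases wide and 8.38 kb apart at the median, with median folds of 6.33, 6.88, 6.71 and 5.81 and a strongest region of Otx2 alone at chr33:492166-492449 (9.29 and 10.8). The direction of the mix on both was that of the small chromosomes as a group, with wide intervals.

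Chromosome 16, which in chicken carries the major histocompatibility complex and the ribosomal RNA genes, stood apart. It had 6 reproducible regions of 7 joined ones, over 0.617 Mb, or 9.72 per Mb (3.57 to 21.2), and none with Otx2 alone. Its median spacing was 1.84 kb. Of its 20 peaks, 17 stood over a background raised more than 2 times. Median folds were low, at 3.82, 3.68, 4.23 and 4.42, and the median region was 531 bases wide. The strongest, chr16:609277-610717, had 79, 52, 67 and 63 summit reads with folds of 4.196, 4.09, 3.48 and 5.83, with backgrounds 98.4, 92.7, 98.8 and 50.6 times the lowest of each list. Chromosome 32 had 3 reproducible regions within 0.0725 Mb, or 41.4 per Mb (8.54 to 121), with a median spacing of 33.8 kb. Its median folds were 6.96, 6.62, 5.47 and 5.85 and its median width was 407 bases. Its strongest region, chr32:15898-16304, had both times of Otx2 (6.96 and 7.01) and Oc1 at 30 min (7.52). Without these 4 chromosomes the density of the small chromosomes was 16.8 per Mb (16.2 to 17.4) and the share of Otx2 alone 31.6%.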

How the data were processed

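The authors deposited a list of narrow peaks for each library. The submitters' processing notes name Bowtie2, SAMtools, deepTools, MACS2 and the build galGal5. Versions, settings, duplicate handling and the control are not given in the sources used here. The deposited columns give positions, the fold enrichment at the summit (a ratio), −log10 of p and q, and a score, which in 100% of rows was −log10 q multiplied by 10 and rounded down. The gene table at hand is of another build, so the planned gene names, GC content and motifs were not run and no sequence is shown.

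Peaks overlapping by 1 base were joined with Python 3.11.15, pandas 2.3.3 and scipy 1.17.1. Summit reads k, a scale c and a background λ were recovered with fold = (ck + 1)/(λ + 1) and p as a Poisson tail, to within 0.002 in −log10 p, for 100% of peaks. The scale was 1 for 3 lists and 0.845 for Otx2 at 30 min. Steps were checked on simulated data. Shares carry Wilson intervals, medians order-statistic intervals, and differences combine both. No test was run, since each antibody and time has 1 library. The regions named are the strongest of each chromosome and the 3 strongest of all lists, of Otx2 alone and of Oc1 alone. Chromosomes, members and lists were chosen with earlier results of these data known.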

Additional observations from a re-analysis of the deposited data

Results flagged for a closer look

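Reproducible regions also lay on sequences without a number, which no comparison above used. Chromosome Z had 463 of them, out of 1103 joined regions, and the mitochondrial genome had 1.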

How the results depend on the processing

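Of 171 alternative values, 124 stayed close to the value reported (within its interval, for the number of regions within 1.5 times, and for −log10 q in place of fold on the same side of 0 or with 0 inside the interval), 47 moved further, and 0 turned the direction of a difference whose interval left out 0. Counted among the 124 are the antibody shares on chromosomes 11 and above where chromosomes 1 to 5 replaced 1 to 10, a setting that could not change them. The density ratio ranged from 1.71 to 2.23. It was 2.11 with a −log10 q of at least 5, 2.20 with the 5000 strongest peaks of each list, 2.19 against chromosomes 1 to 5, 2.23 and 1.77 for regions repeated by Otx2 and by Oc1, 2.20 without peaks over a raised background, and 2.19, 1.71 and 1.72 for all peaks of Otx2 at 30 min, Oc1 at 25 min and Oc1 at 30 min. Leaving out 1 chromosome gave 1.94 (without chromosome 26) to 2.08 (without chromosome 13). The number of regions was 1787 at a −log10 q of at least 5, 1560 in the 5000 strongest, 1954 by Otx2, 1674 by Oc1, 1834 without raised background and 1430 with at least 8 summit reads. The spacing ratio was 0.39, 0.38, 0.44, 0.42, 0.41 and 0.44 at a −log10 q of 5, in the 5000 strongest, against chromosomes 1 to 5, by Otx2, without raised background and with 8 reads. Shares of both antibodies, Otx2 alone and Oc1 alone on chromosomes 11 and above were 18.6, 25.7 and 22.8% with an overlap of 50%, 18.0, 35.0 and 23.6% at a −log10 q of 5, 16.2, 35.5 and 24.6% in the 5000 strongest, 16.4, 37.2 and 18.6% without raised background, and 18.6, 36.3 and 26.8% with 8 reads. Apart from the overlap setting, these settings removed peaks before joining. Regions counted there as of 1 antibody alone can thus include some whose peak of the other antibody was called but removed. The difference of chromosomes 11 and above minus 1 to 10 stayed between 6.36 and 9.59 points for Otx2 alone, the highest with 8 reads, and between -6.47 and -4.96 points for Oc1 alone. For both antibodies it was 2.37 points with an overlap of 50%. The fold difference of Otx2 at 30 min was 0.0618 with an overlap of 50%, 0.0169 at a −log10 q of 5 and 0.75 with 8 reads. That of Otx2 at 25 min was 0.30 at a −log10 q of 5 and 0.75 with 8 reads, that of Oc1 at 25 min 0.65 with 8 reads, and that of Oc1 at 30 min 0.49 for regions repeated by Oc1. In −log10 q, a different unit, the medians differed by 0.208, 1.43, 0.293 and 0 in the order Otx2 at 25 and 30 min and Oc1 at 25 and 30 min, and the interval left out 0 for Otx2 at 30 min alone. The width ratio of Oc1 at 25 min was 0.96 both at a −log10 q of 5 and in the 5000 strongest. The causes were not tested. The settings on background, on 8 reads and on left-out chromosomes were chosen after seeing the data. No paired analysis was possible because no value here comes from a test and the labels number no replicates. With 8 or 9 reads behind a median region, all the fold differences given here were worth less than 1 read. Where an interval left out 0, it covers counting error only.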
